A study of Iris tectorum with 6 samples.

Results

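The 60S proteins described here are the proteins of the large subunit of the cytosolic ribosome, followed in leaf RNA of Iris tectorum, a rhizomatous iris. Members were assembled transcripts (unigenes) whose best protein hit was named as a 60S ribosomal protein or a 60S acidic ribosomal protein, with a hit species in Asparagus, Elaeis, Phoenix, Musa, Ananas, Dendrobium, Phalaenopsis or Iris. These were 239 of 111791 unigenes with reads in at least 1 library. Asparagus gave 154 of the hits, Musa 26, Elaeis 19, Ananas 13, Dendrobium 11, Phoenix 9 and Phalaenopsis 7, so that 7 of the 8 genera had members and Iris had none. The product names resolved into 40 proteins, each represented by between 1 and 16 unigenes. Unigene names are given without the ending _zju that they carry in the deposited files.

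The plants stood in swine wastewater in a glasshouse. The co-culture group shared the water with Dictyosphaerium sp., a colonial green microalga, and the plant alone group grew without it. Values of 3 co-culture libraries (replicates 1, 2 and 3) and 2 plant alone libraries (replicates 2 and 3) were used, while replicate 1 of that group was not analysed here. All plants of both groups were exposed to the wastewater, and the labels give no genotype, age, sampling time or pooling. Nothing in the labels ties the replicates to separate cultures or plants, so a p-value here reflects only how far these libraries scatter, which may be technical.

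The large subunit joins amino acids into protein. Its ribosomal RNA forms the peptidyl transferase centre, and its proteins hold that RNA in shape, line the tunnel through which the new chain leaves, carry the 5S RNA and form the stalk, a flexible arm that recruits translation factors. Because each ribosome normally carries 1 copy of most of these proteins, their genes are usually expressed together, and plants hold several paralogous genes for most of them. Ribosomal protein transcripts are typically abundant in growing leaf tissue. In yeast and animals the supply of these proteins is tied to TOR kinase signalling and to RNA polymerase I, which makes the large ribosomal RNAs.

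The annotation of the members followed the label. A KEGG term for a large-subunit ribosomal protein was attached to 236 of the 239 members, and no member was named as mitochondrial or chloroplastic. The remaining 3 were among the 8 members named 60S ribosomal protein L18A-like, a plant protein name distinct from L18A. A further 134 unigenes hit 60S proteins outside the 8 genera, 48 of them outside land plants. The other 86 were in other land plants, apart from Unigene12218 and Unigene46849, whose hit genus was not read. P2, L44, L8, L39, L37A, L11 and L29 occurred only among these 134 and have no member. The missing names therefore do not show that the leaf lacks the proteins. Members were between 215 and 3626 bases long, with a median of 852.

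Libraries held between 18616931 and 22975621 expected counts, and 223 to 230 of the members had reads in each. edgeR put the biological coefficient of variation at 0.773. Leaf marker transcripts (Rubisco small subunit, chlorophyll a-b binding proteins, Rubisco activase and carbonic anhydrase) were detected in every library, with 65 to 74 of 76 unigenes having reads. Their summed level was 9529, 19593 and 2246 CPM (counts scaled to a common library size) in co-culture 1, 2 and 3, against 5333 and 3415 CPM in plant alone 2 and 3. The carbonic anhydrases were matched by name and included some named as mitochondrial, such as Unigene18448, so the list is not of photosynthetic genes only. Markers of dividing cells summed to 166, 197 and 155 CPM in co-culture, against 167 and 144 CPM in plant alone. In whole leaves, fewer cells of a type and less RNA per cell cannot be told apart.

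The summed level of the members did not separate the groups. Of all counts, members took 1.16%, 1.00% and 1.28% in co-culture 1, 2 and 3, and 1.14% and 1.38% of those in plant alone 2 and 3. Their summed TMM-scaled level was 11876, 11379 and 11080 CPM in the co-culture libraries, against 11210 and 14741 CPM in the plant alone libraries. The mean was 11445 ± 402 CPM in co-culture (SD, n = 3) and 12975 ± 2497 CPM in plant alone (SD, n = 2). On a log2 scale the ratio of the means was -0.18. Plant alone 3 stood highest, and the ratio was 0.05 without it and -0.37 without plant alone 2.

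The balance between the subunits was steady. Members of the small subunit, found by the name 40S ribosomal protein in the same genera, numbered 126. The ratio of summed 60S to summed 40S level by CPM was 1.90, 2.05 and 1.94 in co-culture 1, 2 and 3, set beside 1.98 and 1.99 for plant alone 2 and 3. By FPKM, which divides by transcript length, it was 1.98, 2.08 and 1.95 in co-culture, set beside 2.07 and 2.06 for plant alone. Leaf markers varied several-fold across the same libraries, from 2246 CPM in co-culture 3 to 19593 CPM in co-culture 2, while the 60S sum of co-culture 2 and 3 differed little.

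Per length, and counting members only, the most abundant proteins were spread over several roles. L12, a base of the stalk that holds the factor-binding arm, had the highest mean level, 953 ± 409 FPKM over the 5 libraries (SD). L27A followed with 838 ± 142 FPKM and L19, a tunnel-exit protein that also reaches toward the small subunit, with 783 ± 117 FPKM. L32, L35, L13, L17 and L36 came next, with means of 597, 566, 534, 505 and 498 FPKM. L35 and L17 both sit at the tunnel exit, where nascent chains meet the factors that process and target them. Summed levels averaged over 100 FPKM for 36 of the 40 proteins.

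Neighbours in this order were mostly not separable. Of consecutive proteins, only L9 and L23 had ranges over the libraries that did not overlap, with means of 114 and 50.8 FPKM. L19 and L32, L31 and L10, L21 and P0, and L22 and L13A overlapped in range but kept their order within all 5 libraries. The lowest levels belonged to L34, L38 and P1, at 22.6, 5.47 and 3.92 FPKM. Other unigenes for these and other proteins lie outside the genera of the rule, so the order holds for members only. The L26 members averaged 355 FPKM, but cluster CL11784, with its L26 contigs of Nelumbo hits, averaged 737 FPKM. For L9, cluster CL13501, with a contig of Vitis hit, averaged 234 FPKM. A unigene with a Cajanus hit for L38 (Unigene18311) had 34.1, 32.8 and 28.2 CPM in co-culture, against 40.03 and 37.10 CPM in plant alone, and a unigene with a Nelumbo hit for P1 (Unigene27719) had 132, 87.1 and 88.2 CPM in co-culture, against 126 and 129 CPM in plant alone.

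**Figure D1:**
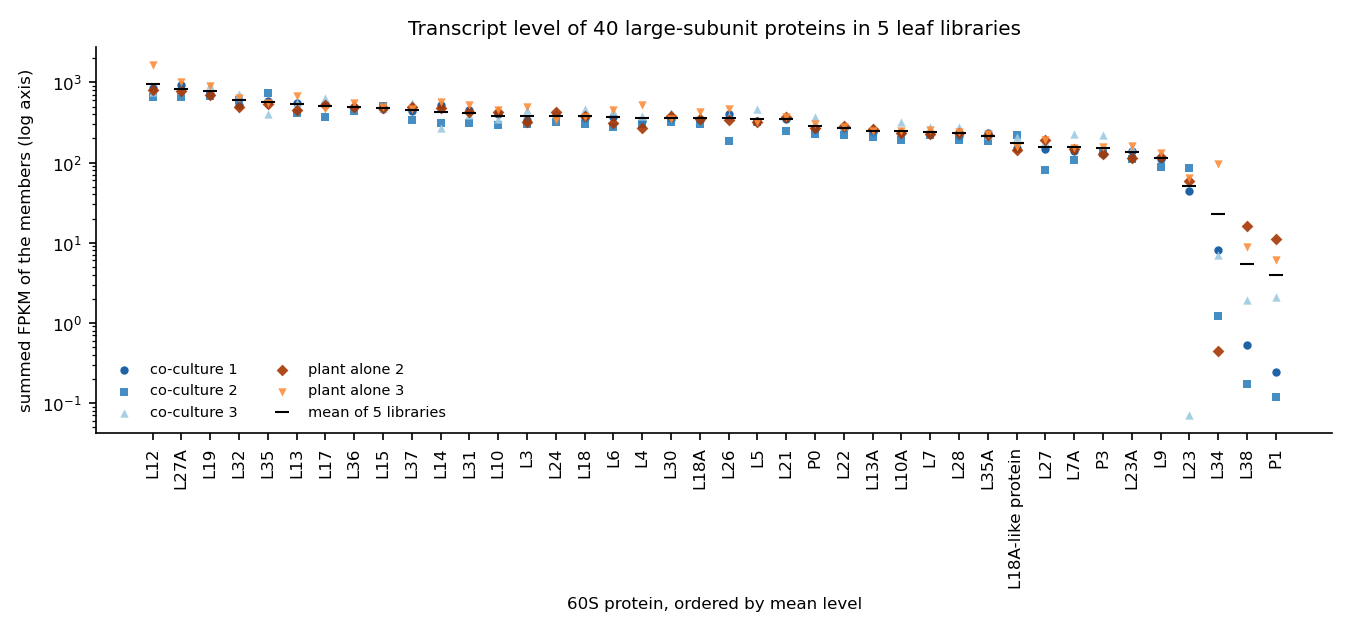
Summed FPKM of the members of each of the 40 proteins in each library (log axis, proteins ordered by mean; dashes are means over the 5 libraries). Levels span from 953 FPKM for L12 to 3.92 FPKM for P1, and the libraries of both groups interleave for most proteins.

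No 60S protein passed the edgeR quasi-likelihood test with Benjamini-Hochberg adjustment at 0.05. The test was run on 44385 entries, in which members were replaced by a sum for each protein and all other unigenes were summed by contig cluster. Of these entries 0.0% were called, so the absence of 60S calls is not particular to them. DESeq2 called 813 entries (1.83%), with 1.28% of all entries called lower, and of the 40 proteins it called L38, which was lower. At an unadjusted edgeR p under 0.05, 2 proteins were lower, L38 and P1, and none was higher, where 6.35% of all entries were lower and 3.06% higher at that level.

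Most protein sums were nevertheless slightly lower in co-culture. A log2 fold change below 0 was found for 34 of 40 proteins, where 50.5% of all entries were below 0. Their median was -0.15, against -0.01 for all entries, and 21 proteins lay within 0.2 of no difference. The proteins whose 3 co-culture libraries were all below both plant alone libraries numbered 10, where 18.4% of all entries were below, and 0 were all above, where 12.6% were. Plant alone 3 was the highest library for 27 proteins and exceeded plant alone 2 for 35. Without plant alone 3 the count was 22 lower and 18 higher. The median was then -0.02, against 0.06 for all entries. The excess of lower proteins thus rested largely on that library, while their median stayed below that of all entries.

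**Figure D2:**
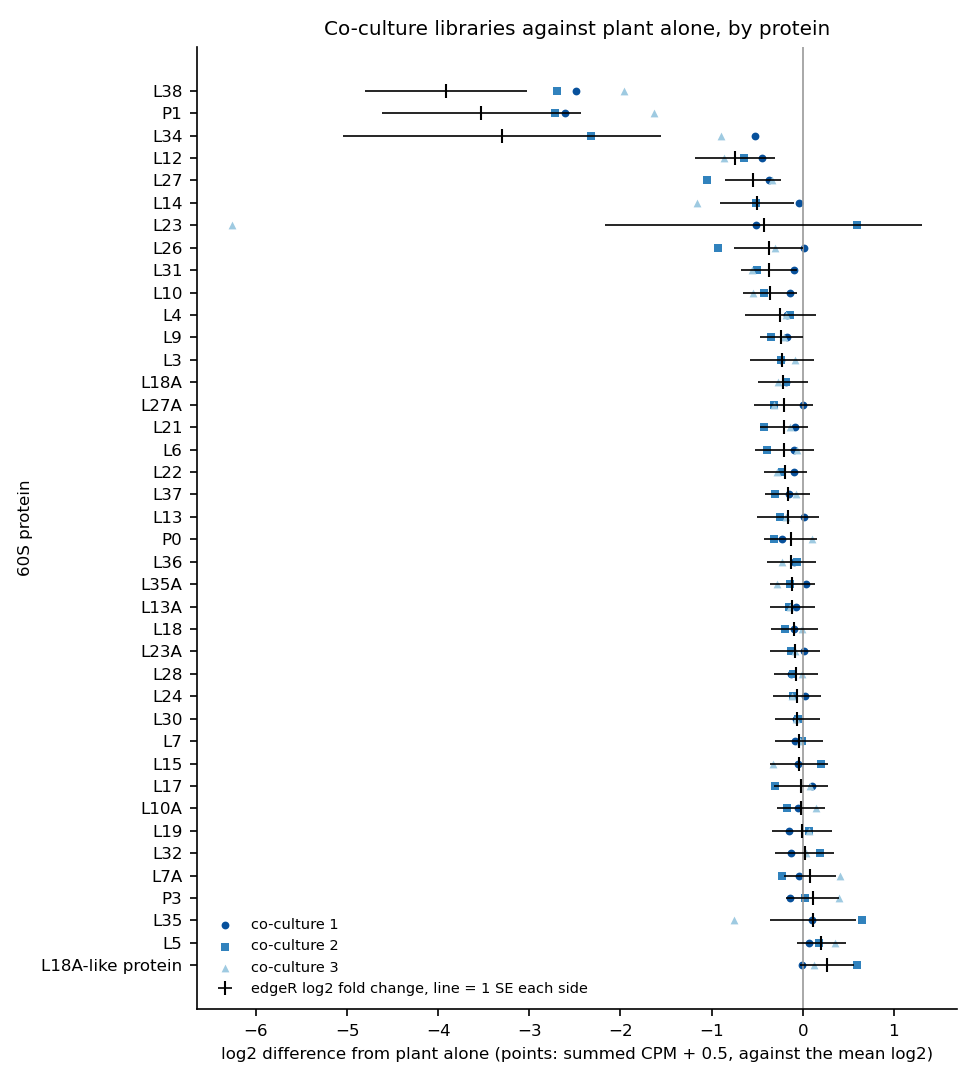
Each of the 40 protein sums as the log2 difference of each co-culture library from the mean log2 value of plant alone (points, after adding 0.5 to the summed CPM) and as the edgeR log2 fold change with 1 SE on each side (black). Except for L38, P1 and L34, the estimates lie within 1 log2 unit of 0, and 34 of 40 are below it.

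The stalk recruits elongation factors, and its proteins did not move as a unit. P0, the core that anchors the arm, had 325, 306 and 406 CPM in co-culture, against 349 and 412 CPM in plant alone. P3, a plant-type acidic protein of the arm, had 107, 120 and 155 CPM in co-culture, against 102 and 136 CPM in plant alone. The groups overlapped for both, with log2 fold changes of -0.13 ± 0.29 and 0.11 ± 0.29 (SE). L12 had 661, 573 and 493 CPM in co-culture, against 605 and 1336 CPM in plant alone, with a log2 fold change of -0.74 ± 0.44. Plant alone 3 alone was high, and the value without that library was -0.07. Its excess lay in 1 contig, CL7920.Contig4, at 455, 386 and 323 CPM in co-culture, against 442 and 1108 CPM in plant alone.

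The single P1 member, CL12925.Contig1, was low throughout. It had 0.09, 0.05 and 0.66 CPM in co-culture, against 3.97 and 2.41 CPM in plant alone, with no overlap. Its sum had a log2 fold change of -3.53 ± 1.09, an edgeR p of 0.020 and an adjusted p of 0.507. With P1 hits of all genera summed, the log2 fold change was -0.39. P2, its partner in the arm, had hits only in other genera, summing to 410, 401 and 320 CPM in co-culture, against 545 and 606 CPM in plant alone.

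L5 carries the 5S RNA into the subunit together with L11, which had no member. L5 had 246, 265 and 299 CPM in co-culture, against 217 and 253 CPM in plant alone. Its log2 fold change of 0.21 ± 0.27 ran opposite to that of most proteins, and the groups overlapped. Adding the L5 hits of other genera turned it to -0.16, mostly through a single unigene with a Vigna hit (Unigene3835), at 7.89, 0.84 and 5.98 CPM in co-culture, against 0.16 and 142 CPM in plant alone.

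L10 and L3 reach toward the sites where tRNAs bind and peptide bonds form. L10 had 457, 376 and 344 CPM in co-culture, against 473 and 537 CPM in plant alone. All co-culture libraries were below both plant alone libraries, with a log2 fold change of -0.36 ± 0.30 and an edgeR adjusted p of 0.701. Most of it came from CL9707.Contig2, at 315, 272 and 212 CPM in co-culture, against 341 and 379 CPM in plant alone. L3 had 519, 521 and 578 CPM in co-culture, against 473 and 795 CPM in plant alone, and overlapped.

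The 8 proteins of the tunnel and its exit had a median log2 fold change of -0.14, and 7 were below 0. L19 had 634, 738 and 739 CPM in co-culture, against 599 and 824 CPM in plant alone, a log2 fold change of -0.01 ± 0.33. L17 had 473, 358 and 468 CPM in co-culture, against 453 and 431 CPM in plant alone, a log2 fold change of -0.02 ± 0.30. L35 varied widely within co-culture, at 472, 687 and 258 CPM in co-culture, against 410 and 468 CPM in plant alone. Its variation followed Unigene22172, with 301, 534 and 112 CPM in co-culture, against 258 and 315 CPM in plant alone. L22 was the tunnel protein whose groups did not overlap, at 200, 183 and 175 CPM in co-culture, against 210 and 216 CPM in plant alone.

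The bridge proteins L24 and L30, which contact the small subunit, had even values. L30 had 255, 260 and 256 CPM in co-culture, against 270 and 268 CPM in plant alone, summed over 16 unigenes. The groups did not overlap, but the log2 fold change was only -0.06 ± 0.25. L24 had 335, 305 and 304 CPM in co-culture, against 356 and 305 CPM in plant alone.

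The remaining 23 proteins, grouped only by not being listed under the roles above, included the L18A-like protein. Their median log2 fold change was -0.16, with 20 below 0. L27 had 107, 66.9 and 110 CPM in co-culture, against 132 and 146 CPM in plant alone, a log2 fold change of -0.55 ± 0.30 with adjusted p = 0.580 by edgeR. L9 had 121, 107 and 118 CPM in co-culture, against 124 and 149 CPM in plant alone, a log2 fold change of -0.24 ± 0.24. With the hits of other genera added, L27 was at -0.05, and L9 turned to 0.12. L27A, L13 and L36, among the 8 most abundant, had overlapping groups and log2 fold changes of -0.21, -0.16 and -0.12, and L32 was at 0.02.

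Single unigenes varied more than the proteins they add up to. Of the 239 members, 232 passed the filter on low counts and 0 were called by edgeR, as were 0.0% of 69984 unigenes. The smallest adjusted p among the members was 0.628. An unadjusted p under 0.05 was reached by 5 members, where 7.2% of all unigenes reached it. These were 2 members that were higher and 3 that were lower, where the shares of all unigenes were 2.75% and 4.45%. DESeq2 called 2 members, both lower, and 1.88% of all unigenes; 0.977% of all unigenes were called lower. Log2 fold changes were above 0 for 81 members and below 0 for 151, with a median of -0.13, where 49.9% of all unigenes were below 0 with a median of 0.00. All co-culture libraries were below both plant alone libraries for 29 members and above for 16, where the shares over all unigenes were 17.2% and 12.8%.

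Summing contigs narrowed the spread. Among the 187 members with a mean of at least 5 CPM, the median range from the lowest to the highest library was 0.81 log2 units, and 20.9% spanned more than 4-fold. For the 127 clusters at that level the median was 0.68 and 12.6% spanned more than 4-fold. For the 38 protein sums it was 0.53, and 2 of them (5.26%), L23 and L34, spanned more than 4-fold. All unigenes at that level had a median range of 1.29, and 30.5% spanned more than 4-fold. The members' 145 clusters and single unigenes included 64 clusters named with CL, of which some, such as CL12925 and CL14930, hold 1 contig here. Together the 64 hold 229 contigs. Of these, 71 were not members, so a cluster sum can include contigs with other product names. Of the 145 sums, 143 were tested and 0 were called by edgeR, as were 0.0% of 44185. At an unadjusted edgeR p under 0.05 there were 5, where 9.43% of all sums reached it. DESeq2 called 2, both lower (1.82% of all sums were called, 1.27% as lower), the single unigenes for L28 and L38 described below.

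**Figure D3:**
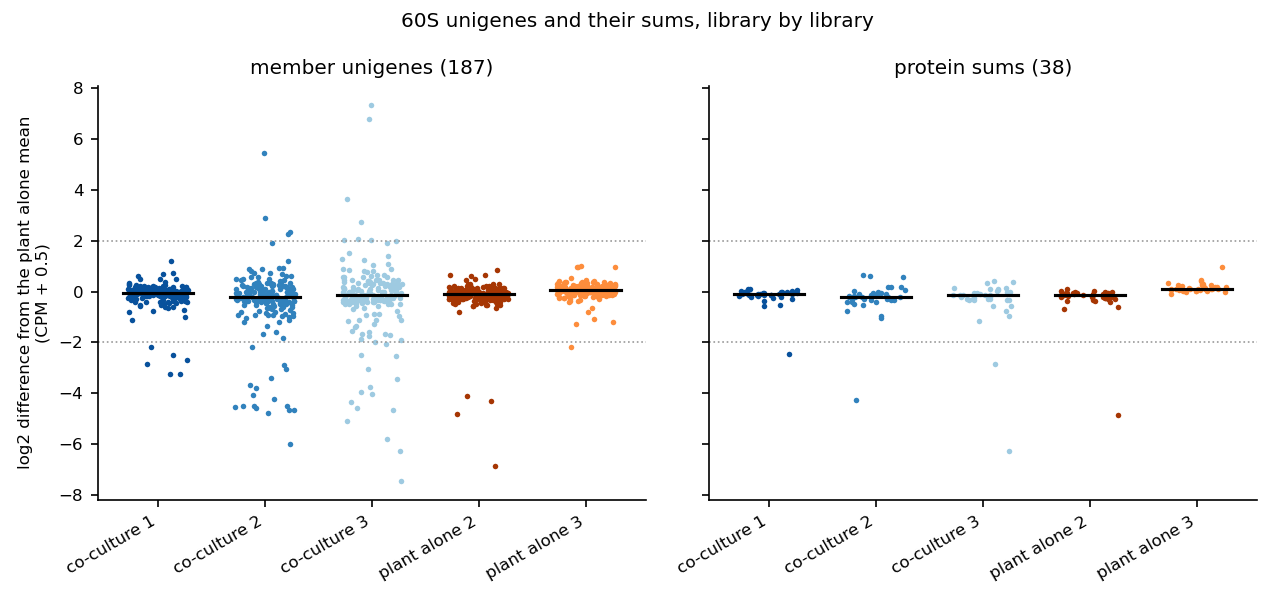
Log2 difference of each library from the plant alone mean, after adding 0.5 to the CPM, for the 187 member unigenes (left) and 38 protein sums (right) with a mean of at least 5 CPM; black lines are medians and dotted lines mark 4-fold. In co-culture 2 and 3, 17 and 16 unigenes lie more than 4-fold below and 4 and 7 above, whereas 1 and 2 protein sums lie below and 0 above.

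Co-culture 1 lay closer to the plant alone libraries than to the other co-culture libraries. Across the 239 members, which share libraries and are not independent, the rank correlation of co-culture 1 with plant alone 2 was 0.975 and with plant alone 3 was 0.966. It was 0.907 with co-culture 2 and 0.839 with co-culture 3, and co-culture 2 and 3 had 0.866 with each other. Over all 111791 unigenes co-culture 1 showed the same order, with 0.831, 0.803, 0.759 and 0.704. Of the 187 members, 6 were more than 4-fold below the mean of plant alone in co-culture 1 and 0 above, where 4.77% and 1.23% of all unigenes were. In co-culture 2, 17 were below and 4 above, where 9.53% and 5.26% of all unigenes were, and in co-culture 3, 16 were below and 7 above, where 7.77% and 3.17% were. Co-culture 2 and 3 had 9 members below (4.81%) and 2 above (1.07%) in common, where 3.10% and 1.71% of all unigenes were below and above in both.

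For several proteins, 1 unigene was low in a co-culture library where another unigene for the same protein was high. L31, a tunnel-exit protein, was such a case. CL3307.Contig1 had 56.6, 46.2 and 0.80 CPM in co-culture, against 53.6 and 91.1 CPM in plant alone. CL3307.Contig2 had no reads in co-culture 1 and 2, 54.7 CPM in co-culture 3 and no reads in plant alone. In co-culture 3 the second contig gave 23.9% of the L31 level and the first 0.35%, while the first gave between 17.9% and 23.7% in the other 4 libraries. The L31 sum was 316, 238 and 229 CPM in co-culture, against 295 and 384 CPM in plant alone.

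L32 and L19 each had a unigene with higher levels in co-culture 2 and 3. Unigene18052, for L32, had 20.3, 128 and 115 CPM in co-culture, against 18.2 and 15.4 CPM in plant alone. All co-culture libraries were above plant alone, but co-culture 1 was above by little, and the log2 fold change of 2.39 ± 0.86 had an adjusted p of 0.628 by edgeR and 0.160 by DESeq2. It made up 4.54%, 23.03% and 23.11% of the L32 level in co-culture, compared with 4.55% and 2.60% of that in plant alone. The L32 sum was 447, 557 and 499 CPM in co-culture, against 401 and 592 CPM in plant alone. For L19, CL3641.Contig2 had 33.1, 158 and 171 CPM in co-culture, against 40.3 and 43.2 CPM in plant alone, and here co-culture 1 was the lowest library.

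L35 and L22 each had a contig seen only in co-culture 2 and 3. CL2480.Contig3, for L35, had 0, 21.5 and 5.69 CPM in co-culture and no reads in plant alone, at least 110-fold higher against 3 counts over the plant alone group. CL2480.Contig2, of the same cluster, had 27.2, 5.38 and 0.83 CPM in co-culture, against 23.7 and 29.0 CPM in plant alone. CL5579.Contig4, for L22, had 0, 11.96 and 5.47 CPM in co-culture and no reads in plant alone, at least 70.8-fold higher by the same floor. Both had an edgeR adjusted p of 0.628, and co-culture 1 had no reads of either. Such bounds cover counting error only.

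Other members had few or no reads in the same libraries. Unigene33232, for L17, had 70.6, 2.06 and 3.81 CPM in co-culture, against 62.2 and 76.3 CPM in plant alone. Unigene11649, for L37, a small zinc-binding protein, had 12.04, 0 and 0 CPM in co-culture, against 11.05 and 11.90 CPM in plant alone. CL1907.Contig1, for L9, had 12.99, 0 and 0 CPM in co-culture, against 9.70 and 14.5 CPM in plant alone. In each case co-culture 1 lay with the plant alone libraries, and the sums of L17 and L9 given above varied far less. The L37 sum was 250, 225 and 263 CPM in co-culture, against 277 and 279 CPM in plant alone. These 3 unigenes were chosen after their values were seen.

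A few exchanges involved co-culture 3 only. For L12, CL7920.Contig2 had 89.3, 60.5 and 0 CPM in co-culture, against 62.1 and 112 CPM in plant alone. CL7920.Contig3, of the same cluster, had 41.9, 58.5 and 107 CPM in co-culture, against 24.4 and 26.5 CPM in plant alone, all above, with an edgeR p of 0.030. For L15, Unigene54830 had 0, 0.14 and 81.3 CPM in co-culture and no reads in plant alone, while CL1185.Contig4 had 167, 249 and 51.4 CPM in co-culture, against 161 and 177 CPM in plant alone. L23 rested on 1 member, Unigene45289, with 28.8, 62.7 and 0.04 CPM in co-culture, against 37.8 and 44.9 CPM in plant alone. Its lone low library was again co-culture 3. Near-identical contigs and paralogs can share reads, so how reads were assigned among the contigs of a protein is uncertain.

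**Figure D4:**
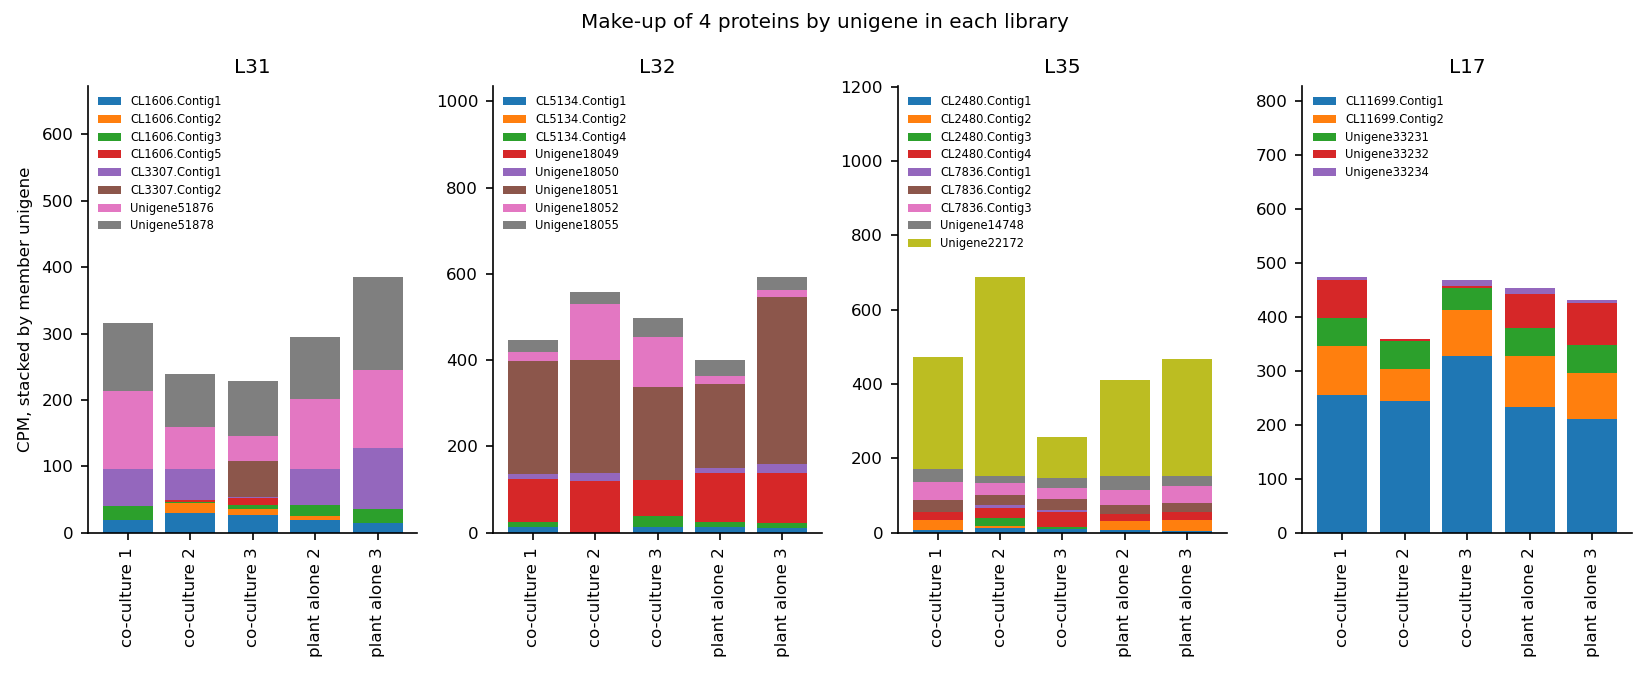
CPM of every member unigene of L31, L32, L35 and L17, stacked by library. Bar heights are the protein sums. CL3307.Contig2 appears only in co-culture 3, where CL3307.Contig1 gives 0.35% of L31, and Unigene18052 is wide and Unigene33232 nearly absent in co-culture 2 and 3.

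The ranking of log2 fold changes covers tested members with a mean of at least 5 CPM in either group. Unigene54830 and CL3307.Contig2, with reads almost only in co-culture 3, did not pass the filter on low counts and are outside it. Of the 5 largest positive values, those not yet given were for L14 and the L18A-like protein. Unigene9874, for L14, had 0.10, 5.87 and 10.3 CPM in co-culture, against 0.11 and 0.38 CPM in plant alone. CL4528.Contig1, for the L18A-like protein, had 9.77, 57.7 and 44.9 CPM in co-culture, against 9.62 and 12.5 CPM in plant alone. Both overlapped through co-culture 1, with log2 fold changes of 4.40 ± 1.99 and 1.76 ± 0.80 and an edgeR adjusted p of 0.628 each. Below that level, CL1606.Contig5, for L31, had 0, 2.87 and 11.4 CPM in co-culture, and CL7836.Contig1, for L35, had 0, 8.69 and 5.44 CPM in co-culture, with no reads of either in plant alone. The L18A-like sum was 122, 185 and 134 CPM in co-culture, against 113 and 133 CPM in plant alone.

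Among tested members with a mean of at least 5 CPM in either group, 5 had the largest negative log2 fold changes. All 5 were high in plant alone 3 only. Unigene14855, for L4, a protein whose extension lines the tunnel, had 10.6, 1.14 and 9.40 CPM in co-culture, against 0.42 and 212 CPM in plant alone. Plant alone 2 was the lowest of the 5 libraries, so the groups overlapped. CL15366.Contig3, for L6, had 1.69, 0.20 and 1.40 CPM in co-culture, against 0.05 and 30.6 CPM in plant alone. CL6968.Contig2, for L13, had 1.84, 0.08 and 1.79 CPM in co-culture, against 0.26 and 25.2 CPM in plant alone. Co-culture 2 was the lowest library for this L13 contig, and plant alone 2 for the other 4. Of the L34 members, Unigene61429 was at 2.09, 0.20 and 1.57 CPM in co-culture, against 0.10 and 22.6 CPM in plant alone, and Unigene26683 was at 0.89, 0.30 and 0.62 CPM in co-culture, against 0.05 and 14.9 CPM in plant alone.

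All 5 changed sign without plant alone 3. The log2 fold change of Unigene14855 was -3.91 ± 2.07 with both plant alone libraries and 4.09 without plant alone 3. Beside these, 60S hits outside land plants summed to 52.1, 10.6 and 39.9 CPM in co-culture, against 72.0 and 838 CPM in plant alone, over 48 unigenes, and all 45 that were tested had a log2 fold change below 0. Of the 134 hits of other genera, 24 were called lower by DESeq2 and 0 by edgeR, and 28 were lower at an unadjusted edgeR p under 0.05. Over all unigenes, 0.977% were called lower by DESeq2 and 4.45% were lower at that unadjusted p. Hits to green algae of any product summed to 2101, 2250 and 1953 CPM in co-culture, against 2725 and 3394 CPM in plant alone. The part of other organisms in the 5 members was not tested.

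**Figure D5:**
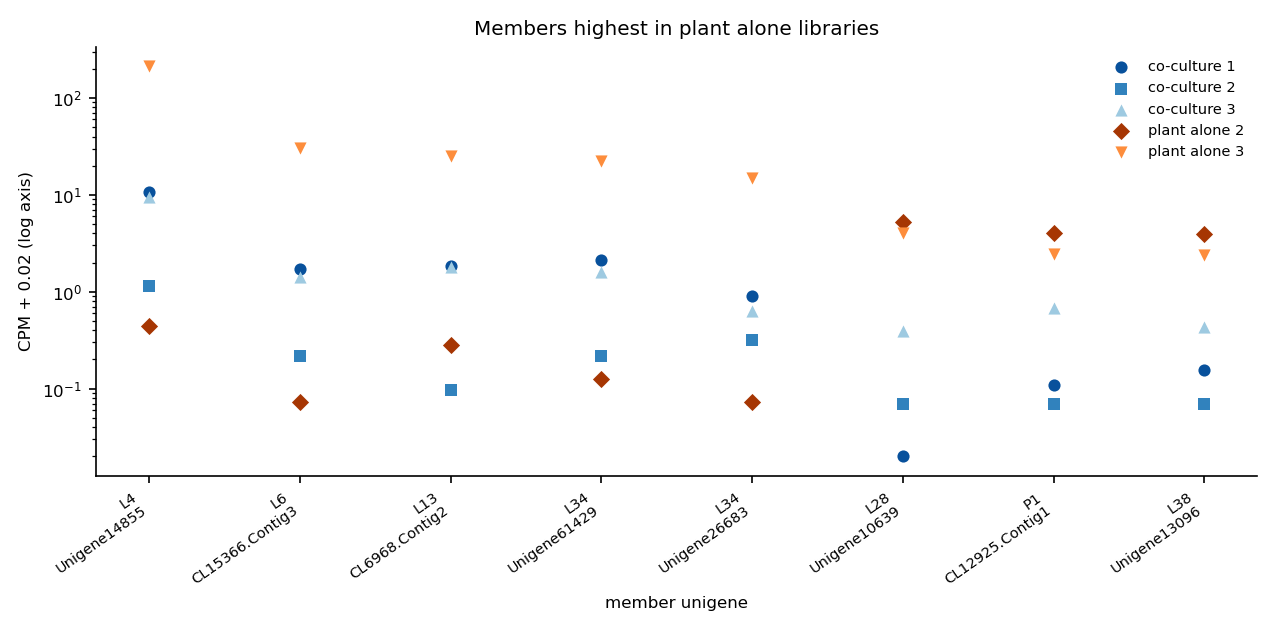
CPM plus 0.02 of 8 members in each library (log axis). The 5 on the left are high in plant alone 3 and near the bottom in plant alone 2, and the 3 on the right, for L28, P1 and L38, are higher in both plant alone libraries than in any co-culture library.

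The members that DESeq2 called differed from these in being higher in both plant alone libraries, at low levels. Unigene10639, for L28, had 0, 0.05 and 0.37 CPM in co-culture, against 5.28 and 4.01 CPM in plant alone. It fell in co-culture by DESeq2, with a log2 fold change of -5.00 and adjusted p = 0.044, and was not called by edgeR (adjusted p = 0.628). Unigene13096, the only L38 member, had 0.13, 0.05 and 0.41 CPM in co-culture, against 3.92 and 2.35 CPM in plant alone, with a DESeq2 log2 fold change of -3.93 and adjusted p = 0.025. The L28 protein sum, over 6 members, was 186, 188 and 202 CPM in co-culture, against 190 and 217 CPM in plant alone, and overlapped. With all L38 hits summed, the log2 fold change was -0.38. The called unigenes were therefore a small part of the CPM of all L28 members and of all L38 hits. Some hits outside land plants had similar values, while others were high in plant alone 3 only. A Galdieria hit for L32 (Unigene37811) had 0.04, 0.10 and 0.16 CPM in co-culture, against 7.48 and 3.78 CPM in plant alone. Whether the L28, L38 and P1 members come from iris or from other organisms was not tested.

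Genes that build or regulate the subunit did not pass the edgeR test either. Of 65 unigenes for 60S assembly and export factors, 57 were tested, 34 with log2 fold changes above 0 and 23 below, with a median of 0.09 and 0 called. Their sum was 1906, 2131 and 1537 CPM in co-culture, against 1552 and 2328 CPM in plant alone. All 6 unigenes for RNA polymerase I subunits were above 0, with a median of 0.34, and their sum was 173, 211 and 197 CPM in co-culture, against 136 and 182 CPM in plant alone. All 8 tested unigenes of TOR signalling were above 0, with a median of 0.32. The TOR unigenes summed to 219, 270 and 335 CPM in co-culture, against 207 and 233 CPM in plant alone. The tested ones were contigs of cluster CL1056 or carried the TOR kinase name, so they need not be 8 separate genes. The polymerase unigenes likewise included contigs of cluster CL4665 and repeated hits to RPA12. The 40S members had a median of -0.10, with 44 above and 78 below 0. edgeR called 0 of them, with 2 higher and 1 lower at an unadjusted p under 0.05, and DESeq2 called 2 higher, where 2.75% and 4.45% of all unigenes were higher and lower at that p and DESeq2 called 0.899% higher. DESeq2 called 0 of the assembly, polymerase and TOR unigenes.

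Among the assembly, polymerase and TOR unigenes, 3 of the 71 tested reached an unadjusted edgeR p under 0.05, all higher in co-culture, where 7.2% of all unigenes reached it and 2.75% were higher. The 3 are given as values only. CL8091.Contig2, for LSG1-2, a GTPase that in yeast releases an export adaptor from the new 60S subunit, had 3.44, 20.0 and 18.0 CPM in co-culture, against 2.41 and 2.27 CPM in plant alone. Unigene52247, for midasin, an ATPase that strips assembly factors from the precursor, had 0.71, 1.73 and 1.73 CPM in co-culture, against 0.31 and 0.23 CPM in plant alone. CL1056.Contig4, for a regulatory-associated protein of TOR, had 3.87, 3.84 and 6.86 CPM in co-culture, against 1.59 and 1.57 CPM in plant alone. In all 3 the groups did not overlap, and the edgeR adjusted p was 0.628. The other contigs of cluster CL8091, also named LSG1-2, all had log2 fold changes below 0. CL8091.Contig3 had 28.4, 19.5 and 0 CPM in co-culture, against 19.6 and 20.2 CPM in plant alone. CL8091.Contig5 had 25.2, 27.6 and 4.30 CPM in co-culture, against 22.1 and 19.4 CPM in plant alone.

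In the authors' deposited table, which compares pooled counts and includes plant alone reads not analysed here, 18 members carried the mark Up and 30 the mark Down, where 16.3% and 13.6% of all its entries did. The authors' deposited table gave log2 ratios (co-culture over plant alone) of 2.47 for Unigene18052, -3.15 for Unigene14855, -4.31 for Unigene10639 and -3.25 for Unigene13096. These have the same direction as the values above. The table pools the same co-culture and plant alone groups, so the shared direction is not separate support. A pooled comparison carries no replicate error.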

How the data were processed

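Leaf RNA of 5 Iris tectorum libraries was analysed, of the 6 samples in the labels (3 replicates per group). The submitters' processing notes name Bowtie2, RSEM and DESeq2, with neither versions nor roles, and the build, assembler and strand setting were not given in the sources used here. Each library's file held an expected count and an FPKM per unigene, as deposited by the authors, per the file headers. The authors' deposited table of pooled values gave a log2 ratio, a p-value and a q-value, of which the ratio and the Up and Down marks were used. Those values were made by the authors, per the file headers.

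Unigenes not listed in a file were given a count of 0 there. After rounding of the expected counts to integers, edgeR 4.0.16 in R 4.3.3 was run with filterByExpr, TMM scaling, quasi-likelihood F tests and Benjamini-Hochberg adjustment at 0.05. It was fitted to all unigenes, to cluster sums and to protein sums, and all CPM are on the TMM scale of the unigene fit. SEs were derived from the F statistic. DESeq2 1.42.0 and limma 3.58.1 were alternatives. edgeR and DESeq2 were tested on simulated data. With the common coefficient of variation of these libraries (0.77) given to every unigene, edgeR recovered few of the changed unigenes. DESeq2 recovered more but made more false calls than correct ones. The 60S protein sums ranged less across libraries than all unigenes (medians of 0.53 and 1.29 log2 units), so these rates need not hold for them. An absence of edgeR calls still does not show an absence of change. Where plant alone had no reads, folds were set against 3 counts over that group. Depth limits precision as the library totals allow, and floors cover counting error only.

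The members and lists were chosen with earlier results of these data known. Named proteins were the 8 highest by FPKM and all stalk and 5S proteins. They also included the 5 largest log2 fold changes of protein sums in each direction with non-overlapping groups (none was higher). Named unigenes were the 5 tested members with the largest changes in each direction at 5 CPM or more in either group. Any edgeR call was also to be named (none). Proteins and unigenes outside that rule were chosen after their values were seen, as exchange partners, by role or by their p. Same-numbered libraries correlated at 0.037 and 0.070 in their deviations from the group means, and with only 2 shared numbers this does not pair the samples. No sequences are shown, since none of the files used here holds any.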

Additional observations from a re-analysis of the deposited data

How the results depend on the processing

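No 60S unigene, cluster sum or protein sum was called under any edgeR or limma setting. By DESeq2, 1313 of all unigenes, 2 member unigenes, 2 cluster sums and 1 protein sum passed. Leaving out each replicate gave 0 calls each time for the unigene fit and for the 60S sums. Without co-culture replicate 3, 230 of all cluster sums and 197 entries of the protein fit were called, none of them a 60S entry. The median log2 fold change of the protein sums (-0.15) was -0.086 with no filter, -0.2085 with 60S hits of any genus, and between -0.2017 and -0.0243 when a replicate was left out. The summed level ran from -0.37 to 0.05 on leaving out a replicate, the ends being without plant alone replicate 2 and without plant alone replicate 3. With a replicate block the calls were 0 at each level and the median of the protein sums was -0.16, and the block was not used because the shared numbers do not pair the samples. Summing only the member contigs of each cluster, a choice made after seeing the data, gave 0 calls. Of 35 named proteins and unigenes, 19 kept their sign in every alternative that tested them and 16 changed it in at least 1. CL2480.Contig3, CL5579.Contig4 and Unigene9874 were tested in 13 alternatives, the others in 15. Leaving out members named as mitochondrial or chloroplastic removed none, so that alternative could change no sign. L38 and L23 were counted both as a sum and as their single unigene. The median of all unigenes moved to 0.18 without plant alone replicate 2 and 0.13 without plant alone replicate 3, and that of all protein and cluster sums to 0.14 with no filter. The cause of these differences was not tested. Precision is limited by the 2 plant alone libraries and a biological coefficient of variation of 0.773.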
